A study of Mus musculus with 12 samples.

Results

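Regulatory T cells (Tregs) from the perigonadal white adipose tissue (PGWAT) of Tbet flox mice were compared with adipose Tregs of control mice. The 6 arrays were taken by their titles, 3 Tbet flox and 3 control, out of 12 arrays in the whole series, and the other 6 held spleen Tregs of the same genotypes. Tbet flox mice carried a floxed T-bet gene (symbol Tbx21) together with Foxp3Cre, and control mice carried Foxp3Cre alone. Both groups were C57BL/6 mice on a high fat diet, so the Cre and the diet were shared by all 6 arrays. The Foxp3 promoter drives the recombinase, which the series' design names as FoxP3-YFP-Cre, so the deletion was aimed at Tregs and not at other T cells. Age, sex, the way the cells were sorted and the number of animals behind an array are not given in the sources used here. All 6 arrays lay on 1 chip with the genotypes in different positions, so genotype and position cannot be told apart.

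T-bet is the transcription factor that commits T cells to the type 1 programme, in which they make interferon gamma and carry the homing receptor CXCR3. Some Tregs also express T-bet, which lets them follow type 1 cells into inflamed tissue. Tregs of visceral fat are a distinct population: they use the lipid-sensing nuclear receptor PPARγ, depend on the alarm cytokine IL-33 and its type 2 circuit, carry markers such as KLRG1 and CCR2, secrete IL-10 and restrain the inflammation of adipose tissue in obesity. The comparison asks what these adipose Tregs express when they are bred to lose T-bet.

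Between 11252 and 16164 of the 45281 probes were detected per PGWAT array (detection p under 0.01), with median signals of 82.4 to 97.1. Levels below are normalized log2 intensities, in which undetected probes sit near 4.4, and differences are Tbet flox minus control. After a filter that kept probes detected at p under 0.05 on at least 3 of the 6 arrays, 12471 genes and unnamed probes were tested. Correlations across genes ran from 0.81 to 0.865 among Tbet flox arrays, from 0.753 to 0.79 among control arrays and from 0.725 to 0.862 between the groups, so arrays of 1 group differed from each other about as much as from the other group. The labels do not say whether the arrays came from separate animals, so a p-value here reflects only how much these samples varied, which may be technical. With 3 arrays a group, precision was limited by their number.

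The T cell label was borne out by the T cell receptor genes, while RNA of other cell types was present and unequal between the groups. Cd3e, a chain of the T cell receptor complex, measured 10.88, 10.94 and 11.21 on the Tbet flox arrays and 10.03, 10.74 and 10.63 on the control arrays, and it was detected on all 6. Of 17 macrophage and monocyte markers, 15 were on the array and 12 passed the filter. All 12 measured lower in Tbet flox (median difference -1.99), and 8 of them lay lower on every Tbet flox array than on any control array, against 6.24% of all genes tested. Their summed intensity was 8822, 7261 and 1511 on the Tbet flox arrays and 13520, 14405 and 14358 on the control arrays. Replicate 3 of Tbet flox was thus far below the others, and without it the median difference was -1.14, with all 12 markers still lower. Msr1 was the macrophage marker detected on no array, while the defining markers Adgre1, Mrc1, C1qa and Lyz2 were detected on all 6.

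Markers of vessels also measured lower in Tbet flox, and 1 control array held much of their signal. The summed intensity of 10 measured endothelial markers was 1110, 818 and 1218 on the Tbet flox arrays and 7628, 1437 and 2040 on the control arrays, so control replicate 1 held the most. All 10 measured lower in Tbet flox (median -1.68), and without control replicate 1 the median was -0.83. Then 9 of 10 measured lower, and 4 lay lower without overlap, against 11.1% of all genes. Control replicate 1 also held the most matrix and adipocyte signal: 11 matrix and stromal markers summed to 4025, 1862 and 1986 on the Tbet flox arrays and 9965, 2949 and 4648 on the control arrays, and 5 adipocyte markers to 4040, 2316 and 2745 on the Tbet flox arrays and 7820, 2696 and 3666 on the control arrays. The same array had the lowest summed intensity of 11 Treg core genes, which was 6245, 7415 and 7968 on the Tbet flox arrays and 3153, 5040 and 5071 on the control arrays. The Treg core sums of the groups did not overlap, and neither did the macrophage sums or the endothelial sums. Because these are bulk samples, fewer cells of a type and less RNA per cell cannot be told apart. The part of these other cells in the results below was not tested. For some lists the values are also given without Tbet flox replicate 3, without control replicate 1 or without both. Leaving out an array makes overlap rarer for every gene, so the share of all genes that lay higher without overlap was 13.6% without Tbet flox replicate 3, 14.1% without control replicate 1 and 20.3% without both, and the share that lay lower was 9.29%, 11.1% and 15.7%.

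**Figure D1:**
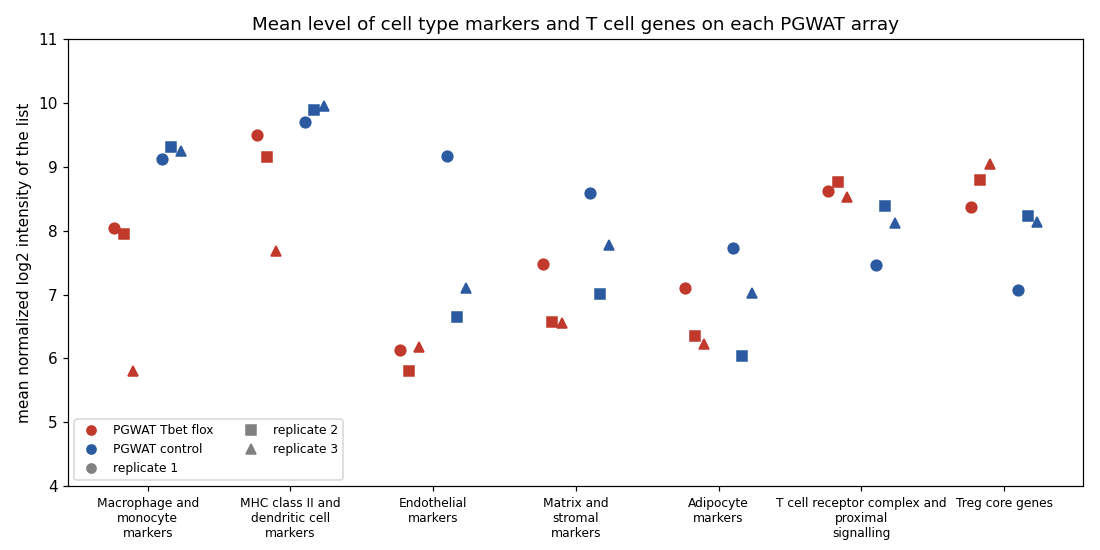
Mean normalized log2 intensity (y axis) of the measured members of 5 marker lists and 2 T cell lists (x axis) on each of the 6 PGWAT arrays, Tbet flox in red left of control in blue, with 1 symbol per replicate. Macrophage markers sit lowest on Tbet flox replicate 3 and endothelial markers highest on control replicate 1, while Treg core genes are higher on all 3 Tbet flox arrays than on all 3 control arrays.

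The target gene did not separate the groups. Tbx21 measured 8.29, 4.65 and 4.47 on the Tbet flox arrays and 4.51, 7.21 and 4.72 on the control arrays. Its only probe was detected on 2 of 3 Tbet flox arrays and on 1 of 3 control arrays, and the groups overlapped. The means were 5.80 ± 2.15 in Tbet flox and 5.48 ± 1.5 in control (SD, n = 3 each), a difference of 0.32 with an exact two-sided permutation p of 0.9, where 3 arrays against 3 cannot go below 0.1. Without Tbet flox replicate 1 the difference was -0.90. Where the probe lies relative to the floxed part of the gene is not given in the sources used here, so its level is no check of the deletion.

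The lineage factor Foxp3 was detected on all 6 arrays. It measured 7.44, 8.59 and 8.55 on the Tbet flox arrays and 5.12, 7.51 and 9.37 on the control arrays, and the groups overlapped. The difference was 0.86 (exact two-sided permutation p = 0.7). Its other 2 kept probes measured -0.87 and -0.25, and without control replicate 1, the array with the lowest Foxp3 level, the brightest probe gave -0.25, so no direction can be given.

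No gene passed at an adjusted p under 0.05 by limma on the 6 arrays (0 of 12471, 0%), while 1156 (9.27%) had an unadjusted p under 0.05. Of these, 689 measured higher (5.52%) and 467 lower (3.74%). The smallest limma adjusted p was 0.0634, shared by Fam183b and 1 unnamed probe, the only 2 under 0.1 (0.016%). A description that needs no estimate of the spread is whether the groups overlap: 1124 genes (9.01%) lay higher on all 3 Tbet flox arrays than on all 3 control arrays and 778 (6.24%) lay lower on all 3. These 2 shares are the background against which the lists are read. The lists were chosen with earlier results of these data known, so their counts are descriptive and are no test of the lists. On simulated data with the spread of these arrays and 200 changed genes, the fit of the 6 arrays found 8.06% of changes of 2 log2 units and 33.6% of changes of 3, so the absence of calls says little about changes of that size. A fit of all 12 arrays that gave each tissue its own weight is used below as a named alternative. It called 32 genes (0.209%), 18 higher (0.118%) and 14 lower (0.0915%). In the simulation this fit averaged 24.4 false calls. It also recovered 1.34%, 32.1% and 65.9% of the simulated differences of 1, 2 and 3 log2 units. The false calls were thus made beside true ones, and they do not give the share of the 32 that is false. With equal weights, which take the smaller spread of spleen for PGWAT as well, 580 were called (3.79%), with 219.8 false calls on the simulated data. All 32 had groups that did not overlap on the 6 PGWAT arrays.

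**Figure D2:**
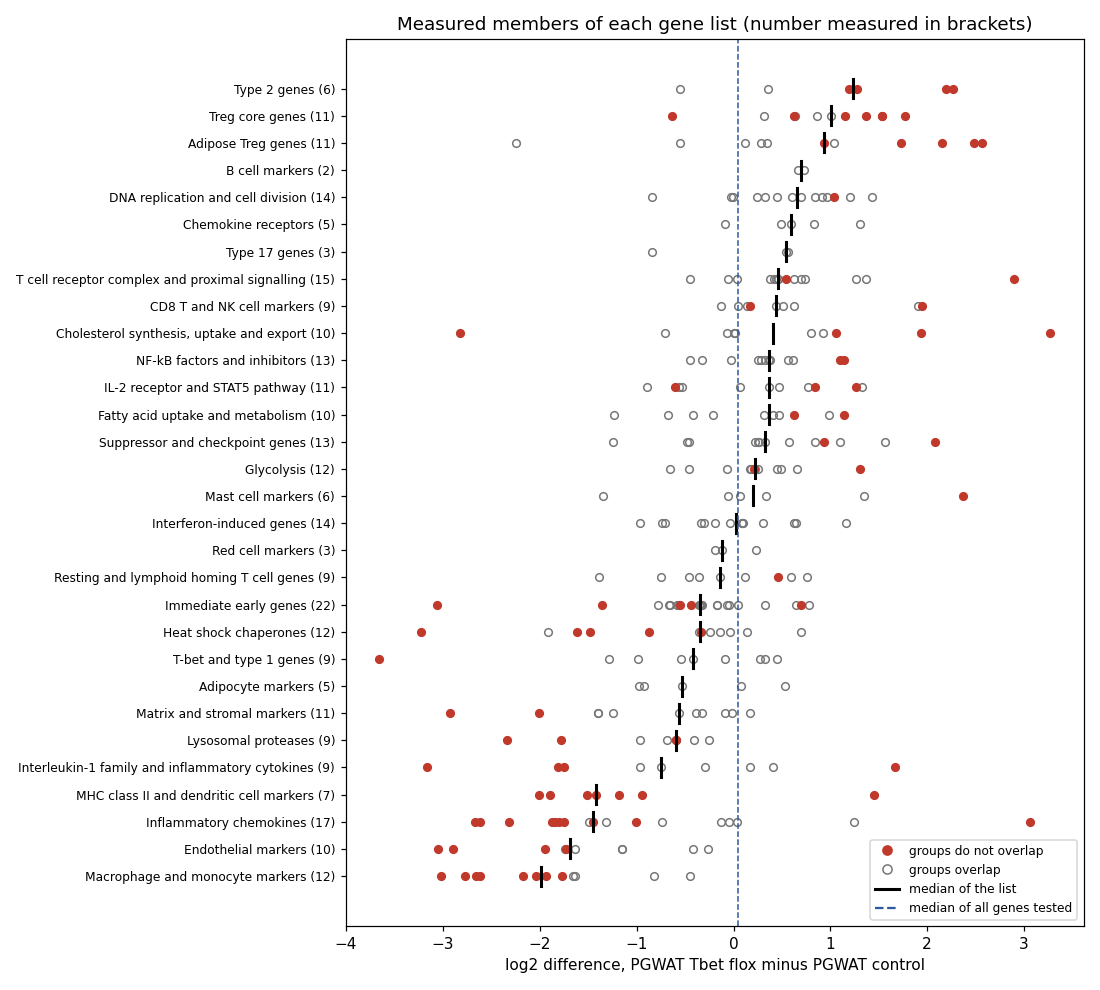
Log2 difference, PGWAT Tbet flox minus PGWAT control (x axis), of each measured member of 30 gene lists (y axis, number measured in brackets), ordered by the list's median (black bar). Filled red points are genes whose 3 Tbet flox levels do not overlap the 3 control levels; type 2, Treg core and adipose Treg genes have the highest medians (1.23, 1.00 and 0.93), and macrophage, endothelial and inflammatory chemokine genes the lowest (-1.99, -1.68 and -1.45).

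Of the genes that T-bet is known to drive, Ifng stood apart and the others did not. Ifng, which encodes interferon gamma, measured 6.58, 5.93 and 4.63 on the Tbet flox arrays and 9.39, 9.84 and 8.88 on the control arrays. Every Tbet flox array lay more than 2 log2 units below every control array. The difference was -3.66 ± 0.57 (SE), the lowest of all 12471, with a limma unadjusted p of 0.000395 and an adjusted p of 0.260. Its other kept probe measured -2.83 without overlap, and the difference stayed between -4.00 and -3.14 when any 1 array was left out. The authors' own processed values gave -2.49 for the gene.

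Cxcr3, the homing receptor gene that T-bet switches on, did not follow. It measured 7.64, 4.93 and 4.42 on the Tbet flox arrays and 5.62, 7.41 and 7.83 on the control arrays. Tbet flox replicate 1 had a level inside the control range, and this was also the array with the highest Tbx21 level (8.29). The highest Cxcr3 level was on control replicate 3, where Tbx21 measured 4.72. A link between the levels of these genes was not tested. The difference was -1.29 ± 0.97 (SE; limma adjusted p = 0.723), and without Tbet flox replicate 1 it was -2.22.

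Of the 15 type 1 genes listed, 14 were on the array and 9 passed the filter. Of these Ifng alone lay lower without overlap and 0 lay higher, against 6.24% and 9.01% of all genes. The median difference was -0.42 against 0.05 over all genes tested. Fasl, the death ligand, measured -0.99, and the chemokine Ccl5 measured -0.54, both with overlapping groups. Xcl1, Il18rap, Stat4 and Il18r1 lay between -0.42 and 0.45. Il12rb2, which carries the IL-12 signal that T-bet sustains, was detected on no array.

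Type 2 genes, a list chosen with earlier results of these data known, mostly measured higher in Tbet flox. Of 10 listed, 6 passed the filter, and 4 of these lay higher on every Tbet flox array than on any control array, against 9.01% of all genes. None lay lower without overlap. Il4 did not pass the filter, with detection on 0 Tbet flox arrays and 1 control array. Ptgdr2 was detected on no array, and Il17rb and Il9r each on 1 Tbet flox array and 0 control arrays. Gata3, the factor that commits T cells to type 2 and also sustains Tregs in tissues, measured 7.47, 7.93 and 8.10 on the Tbet flox arrays and 4.51, 6.34 and 5.84 on the control arrays. The difference was 2.27 ± 0.53 (SE), with a limma adjusted p of 0.384. Il5, the eosinophil growth factor gene, measured 7.49, 8.65 and 7.36 on the Tbet flox arrays and 4.42, 6.41 and 6.07 on the control arrays. Its groups were about 1 log2 unit apart at the nearest arrays, and the difference was 2.20 ± 0.64 (SE; limma adjusted p = 0.407).

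Il4ra, the receptor chain shared by IL-4 and IL-13, measured 7.67, 8.01 and 7.61 on the Tbet flox arrays and 6.08, 6.62 and 6.77 on the control arrays, a difference of 1.27 ± 0.36 (SE). Il13, a sister cytokine gene of Il4, measured 6.03, 6.87 and 6.07 on the Tbet flox arrays and 4.75, 5.45 and 5.19 on the control arrays, a difference of 1.19 ± 0.40 (SE). In both genes the lowest Tbet flox array was above the highest control array, and limma adjusted p was 0.407 and 0.463. Maf measured -0.55 and Stat6, which relays the IL-4 signal, 0.35, both with overlapping groups. Control replicate 1 had the lowest level of Gata3, Il4ra, Il5 and Il13. Without it 4 of 6 lay higher and 1 lower without overlap, against 14.1% and 11.1% of all genes. The list's median was then 1.03 against 1.23 with all arrays. The median was 0.67 in the authors' processed values.

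T-bet binds a DNA element of the T-box family, so the promoters of the 2 lineage genes, 1 lower and 1 higher in Tbet flox, are shown with a search for its core. The letters searched were GGTGTG, on both strands, in the 250 bases before and 50 after the annotated start of RefSeq genes of build GRCm38.p6; capitals mark a match. The core is present in 19.0% of 32851 such promoters, and the 8-letter form AGGTGTGA, which contains it, in 1.28%. Ifng has 0 matches in this window and Gata3 has 1 match of the core. A match describes letters and not a bound site.
Ifng promoter, chr10:118440796-118441095, + strand: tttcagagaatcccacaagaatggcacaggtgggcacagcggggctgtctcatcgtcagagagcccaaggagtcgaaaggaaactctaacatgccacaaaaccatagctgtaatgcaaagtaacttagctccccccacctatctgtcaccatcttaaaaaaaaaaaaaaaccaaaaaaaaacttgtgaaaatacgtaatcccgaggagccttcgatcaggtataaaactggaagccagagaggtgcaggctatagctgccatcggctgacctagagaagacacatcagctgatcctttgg
Gata3 promoter, chr2:9878551-9878850, - strand: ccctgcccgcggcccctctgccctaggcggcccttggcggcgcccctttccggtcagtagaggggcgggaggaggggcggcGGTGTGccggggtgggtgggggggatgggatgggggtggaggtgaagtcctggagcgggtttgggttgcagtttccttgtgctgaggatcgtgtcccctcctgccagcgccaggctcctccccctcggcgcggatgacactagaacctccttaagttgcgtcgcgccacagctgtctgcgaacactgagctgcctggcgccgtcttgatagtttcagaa

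Type 17 genes gave little to read. Only 3 of 9 listed passed the filter, Ccr6 at -0.85, Rora at 0.54 and Ahr at 0.56, all with overlapping groups. Il17a did not pass the filter, and it was detected on 2 of 3 Tbet flox arrays and 0 of 3 control arrays. Il17f, Il22, Il21 and Il23r were detected on no array.

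Genes that identify Tregs mostly measured higher in Tbet flox, while the groups overlapped for Foxp3 itself and some other members. Of 14 Treg core genes listed, 11 passed the filter, and 6 lay higher without overlap against 9.01% of all genes: Il2ra, Tnfrsf18, Ctla4, Tnfrsf4, Tnfrsf9 and Capg. Nrp1, a marker of thymus-derived Tregs, lay lower without overlap (-0.64), though its other kept probe measured -0.58 with overlapping groups. The list's median was 1.00. Leaving out control replicate 1 gave 0.75, and leaving out both that array and Tbet flox replicate 3 gave 0.51. Each time 8 of 11 measured higher and 3 lower, against 10 and 1 with all arrays. Also each time 6 of 11 lay higher and 1 lower without overlap. Over all genes the shares were 14.1% and 20.3% higher, and 11.1% and 15.7% lower.

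Ctla4, the receptor by which Tregs strip costimulation from antigen-presenting cells, measured 10.89, 10.98 and 11.02 on the Tbet flox arrays and 9.31, 10.12 and 10.01 on the control arrays. The Tbet flox arrays lay within 0.07 (SD) of each other, and the difference was 1.15 ± 0.36 (SE; limma adjusted p = 0.439). Il2ra, the high-affinity chain of the IL-2 receptor on which Tregs depend, measured 6.39, 6.66 and 7.17 on the Tbet flox arrays and 5.10, 5.63 and 5.39 on the control arrays, a difference of 1.37 ± 0.37 (SE; limma adjusted p = 0.401). Its other kept probe measured 2.54 higher, also without overlap.

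The costimulatory receptors of the TNF receptor family showed the same order of the groups. Tnfrsf18 (GITR) measured 8.43, 9.38 and 9.0 on the Tbet flox arrays and 6.99, 8.21 and 7.01 on the control arrays, a difference of 1.53 ± 0.48 (SE). Tnfrsf4 (OX40) measured 10.06, 10.13 and 10.51 on the Tbet flox arrays and 7.36, 9.56 and 9.17 on the control arrays, a difference of 1.54 ± 0.61 (SE). Tnfrsf9 (4-1BB), named after its values were seen, measured 9.01, 8.49 and 8.89 on the Tbet flox arrays and 5.05, 8.03 and 8.0 on the control arrays. The other 2 kept probes of Tnfrsf9 measured 1.92 and -0.48, both with overlapping groups, so its place among the 6 rests on 1 probe. For Tnfrsf4 and Tnfrsf9 control replicate 1 was more than 1.5 log2 units below the other control arrays, and the gap between the groups was then narrow.

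Markers of the adipose Treg population also measured higher. Of 14 listed, 11 passed the filter and 5 lay higher without overlap, against 9.01% of all genes, with 0 lower. At all, 9 of 11 measured higher (median 0.93). Without control replicate 1, 6 of 11 measured higher and the median was 0.86. Then 5 lay higher without overlap and 1 lower, against 14.1% and 11.1% of all genes. Klrg1, the inhibitory receptor of differentiated tissue Tregs, measured 10.25, 10.91 and 10.78 on the Tbet flox arrays and 7.69, 9.76 and 8.04 on the control arrays, a difference of 2.15 ± 0.59 (SE; limma adjusted p = 0.406). Il10, the anti-inflammatory cytokine of adipose Tregs, measured 10.07, 10.30 and 9.86 on the Tbet flox arrays and 7.27, 8.76 and 9.02 on the control arrays, a difference of 1.73 ± 0.52 (SE; limma adjusted p = 0.425). In both genes the control arrays spread over more than 1.5 log2 units while the Tbet flox arrays lay close together.

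Ccr2, the receptor for the monocyte chemokine CCL2, measured 8.55, 7.79 and 8.02 on the Tbet flox arrays and 4.55, 6.71 and 5.63 on the control arrays, a difference of 2.49 ± 0.59 (SE; limma adjusted p = 0.391). Its other kept probe measured 0.79 higher, also without overlap. Monocytes carry Ccr2 as well, and their part in this difference was not tested. Pparg, the nuclear receptor of the fat-resident programme, measured 7.88, 8.07 and 7.76 on the Tbet flox arrays and 7.54, 6.71 and 6.66 on the control arrays, a difference of 0.93 ± 0.38 (SE; limma adjusted p = 0.525). Its other kept probe measured 0.03 with overlapping groups, so the probes of Pparg disagree.

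Cxcr6, a receptor of tissue-resident lymphocytes, and Prdm1, which encodes the regulator Blimp-1 of effector Tregs, were named after their values were seen. Cxcr6 measured 9.56, 9.81 and 9.67 on the Tbet flox arrays and 4.55, 9.11 and 7.67 on the control arrays, so much of its difference of 2.57 lay in control replicate 1. Prdm1 measured 4.68, 5.99 and 6.22 on the Tbet flox arrays and 5.92, 8.23 and 9.47 on the control arrays. Its groups overlapped and the difference was -2.24 ± 0.92 (SE; limma adjusted p = 0.525).

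**Figure D3:**
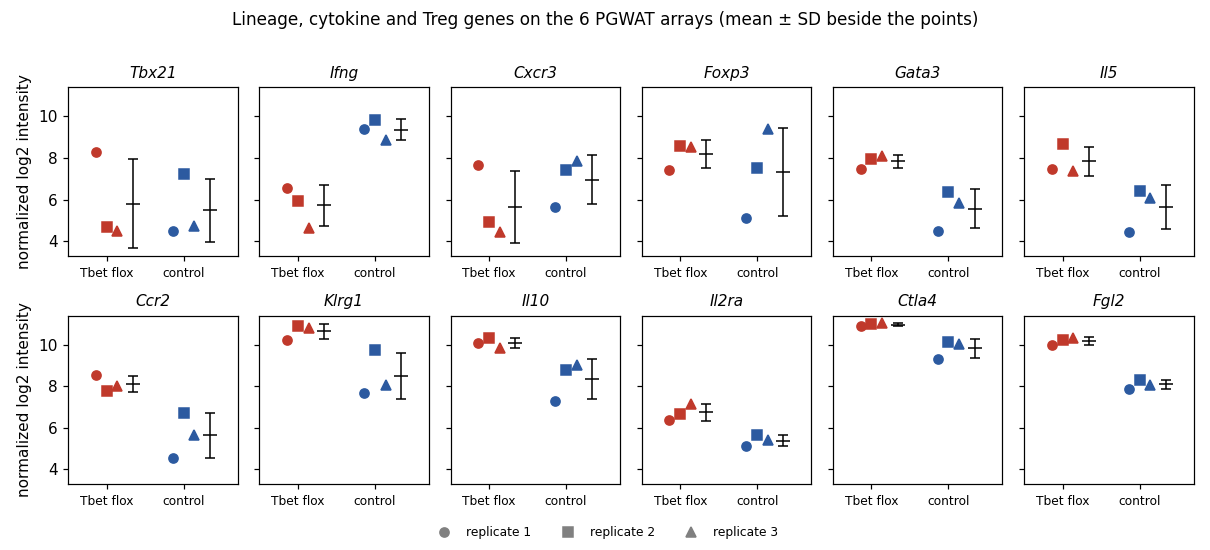
Normalized log2 intensity (y axis) of 12 genes on the 6 PGWAT arrays, Tbet flox (red) left of control (blue), 1 symbol per replicate, with mean ± SD beside the points. Ifng lies lower on all 3 Tbet flox arrays, Tbx21, Cxcr3 and Foxp3 overlap, and the other 8 genes lie higher on all 3 Tbet flox arrays.

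Among suppressor and checkpoint genes, 13 of 14 listed passed the filter and 2 lay higher without overlap, close to the background share of 9.01%. Fgl2, a secreted suppressor protein of Tregs, measured 9.97, 10.24 and 10.31 on the Tbet flox arrays and 7.88, 8.32 and 8.07 on the control arrays. The groups were more than 1.5 log2 units apart and the difference was 2.08 ± 0.33 (SE; limma adjusted p = 0.260). Pdcd1, the PD-1 receptor gene, measured 5.68, 6.06 and 6.26 on the Tbet flox arrays and 4.69, 5.14 and 5.36 on the control arrays, a difference of 0.94 ± 0.36 (SE; limma adjusted p = 0.509). The remaining 11, from Btla at -1.24 to Cd200r1 at 1.56, had overlapping groups by their brightest probe, though the other 2 kept probes of Cd200r1 lay higher without overlap (1.83 and 1.91).

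Genes of the T cell receptor complex and its proximal signalling were mostly higher in Tbet flox by small amounts. Of 15 measured, 13 measured higher (median 0.46), beside 6622 of all 12471 genes tested. Only 2 of the 15, Cd3e and Camk4, lay higher without overlap, against 9.01% of all genes. Camk4, a calcium-dependent kinase gene, measured 8.77, 8.90 and 9.05 on the Tbet flox arrays and 4.46, 8.16 and 5.42 on the control arrays. The Tbet flox arrays agreed within 0.14 (SD) and the control arrays within 1.92, and the difference was 2.89 ± 0.90 (SE; limma adjusted p = 0.432). The other 2 kept probes of Camk4 measured 1.59 and 0.84, both with overlapping groups. Zap70, the kinase that the activated receptor recruits, measured 1.36 with overlapping groups by its brightest probe, and 2.97 and 1.15 without overlap by the other 2. Cd4, the coreceptor gene of helper T cells, measured 1.27 ± 0.62 (SE) with overlapping groups. Without control replicate 1 the median of this list was 0.22.

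Of 11 measured genes of the IL-2 and STAT5 pathway, the feedback inhibitors Socs1 (1.27) and Cish (0.84) lay higher without overlap and the survival gene Mcl1 (-0.60) lower. Of 13 genes of the NF-κB pathway, Traf1 and Nfkb2 lay higher without overlap. Traf1, an adaptor of TNF receptors, measured 10.86, 10.94 and 11.11 on the Tbet flox arrays and 9.51, 10.29 and 9.81 on the control arrays, a difference of 1.10 ± 0.35 (SE; limma adjusted p = 0.444). Nfkb2, the subunit of the alternative NF-κB pathway that TNF receptors engage, measured 1.14 ± 0.46 (SE; limma adjusted p = 0.525). In these 2 lists 2 of 11 and 2 of 13 lay higher without overlap, against 9.01% of all genes.

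The genes with the smallest unadjusted p that measured higher were, in order, Fam183b, Mterf1b, Mterf1a, Tnik, Wbp4, Hlf, Exosc9, Fgl2, Hsd17b7, Acot11, Mmrn1 and Mmp25. They were the top 12 of 447 named genes with non-overlapping groups, a difference of at least 1 log2 unit and detection on all 3 Tbet flox arrays, and their limma adjusted p ran from 0.0634 to 0.260. Where every probe of a gene was undetected on all 3 control arrays, the fold is a lower bound, taken against the lowest signal detected on each of those arrays or the probe's own where that was higher.

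Fam183b, a gene named for its protein family and expressed in ciliated cells, had the largest measured difference. It measured 8.41, 8.97 and 8.48 on the Tbet flox arrays and 4.52, 4.47 and 4.29 on the control arrays, where it was not well above background. It was at least 14.3-fold higher in Tbet flox (measured difference 4.19 ± 0.34, SE; limma adjusted p = 0.0634). It is represented by 1 kept probe, so no other probe bears on it.

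Mterf1a and Mterf1b, neighbouring copies of a mitochondrial transcription termination factor gene, came next. Mterf1a measured 8.26, 7.22 and 8.79 on the Tbet flox arrays and 4.38, 4.33 and 4.26 on the control arrays, at least 9.86-fold higher in Tbet flox (limma adjusted p = 0.218). Mterf1b measured 7.53, 7.40 and 8.40 on the Tbet flox arrays and 4.38, 4.50 and 4.33 on the control arrays (difference 3.37 ± 0.39, SE). A further kept probe of Mterf1a measured 3.52 higher and one of Mterf1b 0.20. The copies are close to identical, so a probe of one may read the other, and the 2 genes are reported as uncertain. Their promoters are shown to make this visible: aligned without gaps they share 291 of 293 overlapping bases (99.3%), and capitals mark the 2 bases that differ. Both lie on chromosome 5 of build GRCm38.p6, on opposite strands.
Mterf1a promoter, chr5:3893884-3894183, - strand: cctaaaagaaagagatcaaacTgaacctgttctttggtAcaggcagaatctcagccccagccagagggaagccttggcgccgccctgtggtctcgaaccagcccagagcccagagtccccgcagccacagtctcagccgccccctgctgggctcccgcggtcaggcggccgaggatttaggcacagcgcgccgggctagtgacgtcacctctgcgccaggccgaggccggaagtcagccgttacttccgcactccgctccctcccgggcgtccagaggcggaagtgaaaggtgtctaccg
Mterf1b promoter, chr5:4192117-4192416, + strand: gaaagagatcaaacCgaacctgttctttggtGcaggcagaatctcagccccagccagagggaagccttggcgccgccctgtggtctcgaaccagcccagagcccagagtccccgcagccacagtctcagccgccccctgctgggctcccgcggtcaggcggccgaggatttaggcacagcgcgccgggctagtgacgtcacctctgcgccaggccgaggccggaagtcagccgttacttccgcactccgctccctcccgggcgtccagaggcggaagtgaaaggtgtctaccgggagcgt

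Of the remaining genes in this group, Tnik, a kinase gene of the Wnt and JNK pathways, measured 7.30, 7.13 and 7.55 on the Tbet flox arrays and 4.56, 4.98 and 4.35 on the control arrays. Its other kept probe measured 0.47 with overlapping groups, against 2.70 for this one. Hlf, a transcription factor gene best known in stem cells and the circadian clock, measured 6.31, 6.87 and 7.23 on the Tbet flox arrays and 4.38, 4.48 and 4.40 on the control arrays, at least 4.05-fold higher in Tbet flox. Acot11, an acyl-CoA thioesterase gene, was at least 4.58-fold higher by its brightest probe (the other kept probe measured 0.79 higher) and Mmp25, a membrane-bound matrix protease gene, at least 2.73-fold higher. For Hlf, Acot11 and Mmp25 no probe was detected on any control array, and limma adjusted p was 0.260 for each.

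Wbp4 of the spliceosome (3.02 ± 0.46), Exosc9 of the RNA exosome (2.18 ± 0.34) and Mmrn1, a platelet and endothelial matrix protein gene (2.33 ± 0.37), also had non-overlapping groups (SE). Mmrn1 measured higher in Tbet flox while the endothelial markers measured lower, and which cells its RNA came from was not tested. Hsd17b7, an enzyme of cholesterol synthesis, measured 9.13, 8.98 and 9.67 on the Tbet flox arrays and 5.84, 6.94 and 5.20 on the control arrays, a difference of 3.27 ± 0.52 (SE; limma adjusted p = 0.260).

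**Figure D4:**
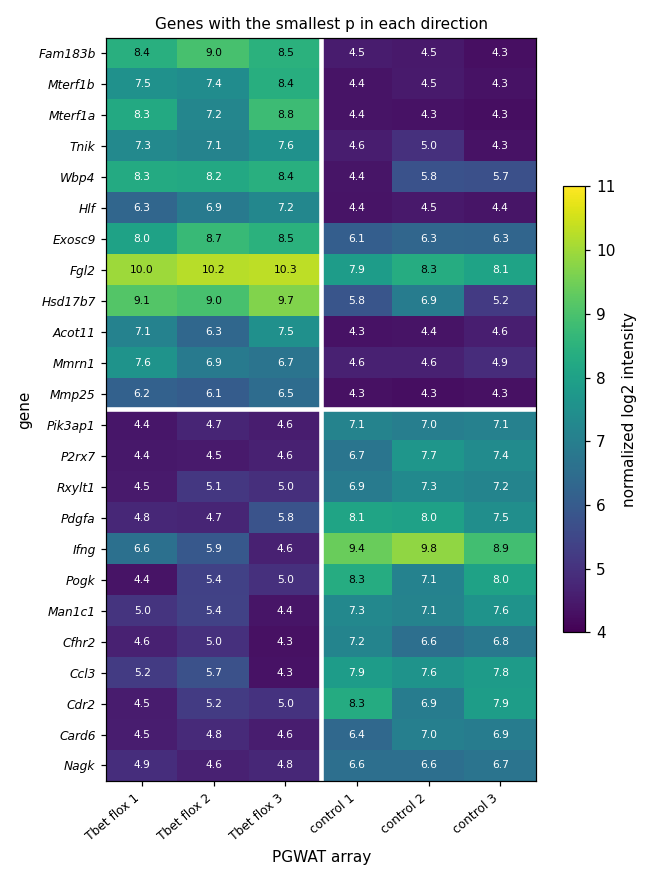
Normalized log2 intensity (colour scale and printed value) of the 12 genes with the smallest unadjusted p that measured higher in Tbet flox (upper rows) and the 12 that measured lower (lower rows), on the 3 Tbet flox arrays (left) and the 3 control arrays (right) of PGWAT. The genes were chosen for this difference; most are near the undetected level in the dimmer group.

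The genes with the smallest unadjusted p that measured lower were, in order, Pik3ap1, P2rx7, Rxylt1, Pdgfa, Ifng, Pogk, Man1c1, Cfhr2, Ccl3, Cdr2, Card6 and Nagk, the top 12 of 350, with limma adjusted p from 0.218 to 0.260. Pik3ap1, an adaptor that links receptors of B cells and myeloid cells to PI3K, measured 4.43, 4.72 and 4.56 on the Tbet flox arrays and 7.14, 7.0 and 7.07 on the control arrays, a difference of -2.50 ± 0.31 (SE; limma adjusted p = 0.218). Its other kept probe measured -1.08 with overlapping groups. P2rx7, the receptor gene for extracellular ATP found on T cells and macrophages, measured 4.45, 4.52 and 4.65 on the Tbet flox arrays and 6.72, 7.68 and 7.37 on the control arrays. Of its other 3 kept probes 1 was also lower without overlap (-1.80), and 2 had overlapping groups (-0.42 and -0.23).

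Pdgfa, a growth factor gene for stromal cells, measured 4.78, 4.74 and 5.80 on the Tbet flox arrays and 8.08, 8.02 and 7.47 on the control arrays, a difference of -2.75 ± 0.43 (SE). Rxylt1 (-2.27) and Man1c1 (-2.39) encode enzymes that build sugar chains, and Nagk (-1.83) a kinase of amino sugars. Nagk measured -0.29 in the fit of 12 arrays, with overlapping groups (limma adjusted p = 0.959), where another of its probes was the brightest. Of the other kept probes of Man1c1, 1 measured -2.18 without overlap and 1 measured -0.58 with overlap, and that of Cfhr2 measured -0.37 with overlapping groups. Cfhr2 (-2.20) belongs to the complement factor H family and Card6 (-2.12) to the CARD proteins, and Pogk (-2.91) and Cdr2 (-2.80) completed the set. The T-box core was found in a promoter of 3 of the 11 lower genes with an entry (Nagk, P2rx7 and Pdgfa) and of 0 of the 10 higher genes with an entry, beside 21.4% of 27025 genes.

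Inflammatory chemokine genes measured lower in Tbet flox, in step with the macrophage markers. Of 18 listed, 17 passed the filter; 9 lay lower without overlap, against 6.24% of all genes, 1 lay higher, and the median difference was -1.45. Without Tbet flox replicate 3 the median was -0.77, and 11 of 17 measured lower, against 14 with all arrays. Ccl3, which attracts monocytes and T cells, measured 5.22, 5.74 and 4.34 on the Tbet flox arrays and 7.87, 7.60 and 7.84 on the control arrays, a difference of -2.67 ± 0.44 (SE; limma adjusted p = 0.260).

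Ccl17, a dendritic cell chemokine for CCR4-bearing cells, was detected on 0 of 3 Tbet flox arrays (4.31, 4.29 and 4.27) and on all 3 control arrays (5.37, 8.06 and 7.31), at least 4.60-fold lower in Tbet flox (limma adjusted p = 0.401). Ccl24, an eosinophil chemokine gene of macrophages, measured 5.28, 5.29 and 4.63 on the Tbet flox arrays and 7.69, 6.13 and 6.92 on the control arrays. Cxcl1, a neutrophil chemokine gene named after its values were seen, measured 10.72, 9.82 and 8.46 on the Tbet flox arrays and 11.81, 11.14 and 11.31 on the control arrays. In Ccl24 and Cxcl1 Tbet flox replicate 3 had the lowest level of all 6 arrays, as it did for the macrophage markers. For Ccl17 all 3 Tbet flox levels lay at background, so their order is not read.

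Cxcl3, another neutrophil chemokine gene, was the exception in the list. It measured 8.09, 8.72 and 8.48 on the Tbet flox arrays and 6.03, 5.76 and 4.31 on the control arrays, a difference of 3.06 ± 0.53 (SE; limma adjusted p = 0.260, and 0.0347 in the fit of 12 arrays with tissue weights). Of 5 measured chemokine receptors none had groups that did not overlap, with Ccr8, found on tissue Tregs, at 1.31 and Cxcr4 at -0.09.

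The cytokines of the IL-1 axis followed the chemokines in part. The median of the 9 measured members of this list was -0.75. It was -0.50 without Tbet flox replicate 3, -0.38 without control replicate 1 and -0.03 without both. Il1a, an alarm cytokine, measured 5.51, 5.87 and 4.32 on the Tbet flox arrays and 8.43, 6.63 and 10.14 on the control arrays, a difference of -3.17 ± 0.90 (SE; limma adjusted p = 0.407). Il1b, the form released by activated macrophages, measured 8.02, 7.98 and 4.32 on the Tbet flox arrays and 8.88, 8.44 and 8.43 on the control arrays, where Tbet flox replicate 3 sat at the undetected level. Il6, made by macrophages and stromal cells, measured 8.04, 6.20 and 7.82 on the Tbet flox arrays and 10.31, 8.20 and 8.78 on the control arrays, a difference of -1.75 ± 0.72 (SE). The decoy receptor gene Il1r2, which Tregs of tissues carry, lay on the other side, at 6.77, 7.21 and 7.31 on the Tbet flox arrays and 4.43, 5.51 and 6.36 on the control arrays (1.67 ± 0.54, SE; limma adjusted p = 0.444). Tnf measured -0.30 with overlapping groups.

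Several heat shock genes measured lower in Tbet flox. Of 12 measured, 5 lay lower without overlap, against 6.24% of all genes, and 0 higher (median -0.35). Without Tbet flox replicate 3, 5 lay lower, against 9.29% of all genes, and 1 higher, and the median was -0.24. Hspa1a, the inducible HSP70 gene, measured 7.41, 8.07 and 4.55 on the Tbet flox arrays and 9.74, 9.50 and 10.48 on the control arrays, a difference of -3.23 ± 0.91 (SE; limma adjusted p = 0.407). Hspa1b, its near-identical copy, measured 6.42, 6.30 and 6.69 on the Tbet flox arrays and 7.78, 7.87 and 8.59 on the control arrays (-1.61 ± 0.37, SE; limma adjusted p = 0.366). Of the other kept probes of Hspa1a, 1 measured -2.74 without overlap and 1 measured -1.65 with overlap. Probes of the copies may read each other. Hsph1, a co-chaperone of HSP70, measured -1.48 ± 0.43 (SE; limma adjusted p = 0.407), and the constitutive chaperone genes Hspa8, Hspd1 and Hspe1 lay between -0.25 and -0.04.

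Of 22 measured immediate early genes, which tissue digestion and activation switch on within minutes, 4 lay lower and 1 higher without overlap, against 6.24% and 9.01% of all genes, and the median was -0.34. Ccn1, a matrix-associated gene of stromal and endothelial cells, measured 5.71, 6.12 and 7.18 on the Tbet flox arrays and 10.09, 8.83 and 9.27 on the control arrays, a difference of -3.06 ± 0.53 (SE; limma adjusted p = 0.260). Its other 2 kept probes measured -2.42 without overlap and -1.02 with overlapping groups. Egr2, which restrains T cells after activation, measured 10.40, 10.17 and 8.27 on the Tbet flox arrays and 10.99, 10.59 and 11.33 on the control arrays. Fos (-0.44) and Egr1 (-0.55) also lay lower without overlap and Jund (0.70) higher.

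Interferon-induced genes showed no common direction: of 14 measured, 7 were higher and 7 lower, the median was 0.02 and in none did the groups separate. Genes of DNA replication and division were mostly higher, 11 of 14, with a median of 0.65, beside 6622 of all 12471 genes tested. Mcm6 of the replicative helicase (1.04 ± 0.39, SE; limma adjusted p = 0.487) alone lay higher without overlap, against 9.01% of all genes. Its probe with the largest SD measured -0.48. Mcm4 of the same helicase measured 1.20 and Birc5, a regulator of division, 1.43, both with overlapping groups. The other kept probes measured -0.09 and 0.03 for Mcm4 and -0.75 and 0.43 for Birc5, so no direction can be given for either gene. Among 9 resting and lymphoid homing genes, Il7r (0.46) alone lay higher without overlap, against 9.01% of all genes. Its other kept probes measured 1.68, 1.10 and 1.06 without overlap and 1.14 with overlapping groups. Ccr7, which leads cells to lymph nodes, measured -1.39 with overlapping groups.

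Of 10 measured genes of cholesterol handling, the synthesis genes Hsd17b7, Cyp51 and Idi1 lay higher without overlap and the exporter Abca1 lower. The shares over all genes were 9.01% higher and 6.24% lower. Cyp51, a sterol demethylase gene, measured 7.93, 6.46 and 8.13 on the Tbet flox arrays and 4.70, 6.30 and 5.71 on the control arrays, a difference of 1.94 ± 0.62 (SE; limma adjusted p = 0.439). Abca1, abundant in macrophages that unload cholesterol, measured 7.01, 5.37 and 4.33 on the Tbet flox arrays and 9.16, 7.83 and 8.19 on the control arrays, a difference of -2.83 ± 0.73 (SE; limma adjusted p = 0.401). Other synthesis genes differed from these: Sqle, Insig1 and Srebf2 lay between -0.07 and 0.01, and Lss measured -0.70.

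Of 10 measured genes of fatty acid metabolism, Acsl4 (1.14) and Acaa2 (0.63) lay higher without overlap, against 9.01% of all genes. However, 2 of the other kept probes of Acsl4 measured -0.62 and -0.60 and the other of Acaa2 measured 0.23, all with overlapping groups. Of 12 glycolysis genes, the glucose transporter gene Slc2a3 (1.30 ± 0.53, SE) and Gapdh (0.22) lay higher without overlap, against 9.01% of all genes. The median was 0.22, or -0.02 when arrays were scaled to 1 median.

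Among the markers of other cells the macrophage list had the lowest median. Trem2, a lipid receptor of adipose macrophages, measured 4.34, 5.41 and 4.33 on the Tbet flox arrays and 8.0, 6.50 and 7.56 on the control arrays (-2.66 ± 0.53, SE; limma adjusted p = 0.313). The complement genes C1qa and C1qc of tissue macrophages measured -2.77 ± 0.72 and -3.02 ± 0.98, and the Fc receptor gene Fcgr3 -2.04 ± 0.73 (SE). C1qc stood at 8.12, 8.70 and 4.79 on the Tbet flox arrays and 10.38, 9.96 and 10.35 on the control arrays, so all 3 Tbet flox arrays were lower and replicate 3 was lowest.

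Of 7 measured MHC class II and dendritic cell markers 6 lay lower without overlap, against 6.24% of all genes. Without Tbet flox replicate 3, again 6 lay lower, against 9.29% of all genes, and the median was -0.84, against -1.42 with all arrays. Among the 6 was Cd74, the class II chaperone, at 11.58, 11.36 and 9.43 on the Tbet flox arrays and 12.37, 12.31 and 12.23 on the control arrays. Zbtb46, the dendritic cell factor, lay higher by its brightest kept probe (1.46), but its other 2 gave 0.21 and -0.81 and the gene measured -0.88 when arrays were scaled to 1 median, so no direction can be given. Of the lysosomal proteases, Lgmn (-1.78), Ctsa (-2.34) and Ctsb (-0.60) lay lower without overlap, against 6.24% of all genes, and all 9 measured members were lower. Without Tbet flox replicate 3, 7 of 9 measured lower and 2 higher, and the median was -0.47, against -0.60 with all arrays. The other kept probe of Ctsa measured -1.02 with overlapping groups.

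Endothelial and matrix markers were led by Bcl6b, which is found in endothelium and lymphocytes. It measured 5.00, 5.25 and 5.24 on the Tbet flox arrays and 9.49, 7.12 and 8.03 on the control arrays, a difference of -3.05 ± 0.61 (SE; limma adjusted p = 0.313). Aplnr, the apelin receptor of vessels, measured -2.90 ± 0.61, Esam, a junction protein gene, -1.95 ± 0.65, and Sox7, an endothelial factor, -1.73 ± 0.34 (SE). These 4 lay lower without overlap, out of 10 measured endothelial markers and against 6.24% of all genes. The basement membrane genes Lamb2 (-2.93 ± 0.52) and Col4a1 (-2.01 ± 0.59) did as well (SE), while Col1a2, Col3a1 and Dcn lay between -0.56 and 0.17.

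Fabp4, shared by adipocytes, endothelium and macrophages, measured 11.87, 11.07 and 11.35 on the Tbet flox arrays and 12.84, 11.34 and 11.72 on the control arrays, and Adipoq, the adipocyte hormone, was detected on 1 of 3 Tbet flox and 2 of 3 control arrays. No adipocyte, B cell or red cell marker had groups that did not overlap, and no mesothelial marker passed the filter. Ms4a1 of B cells, Plin1 of adipocytes and Kit of mast cells were detected on no array.

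Among CD8 T and NK cell markers, 8 of 9 measured higher and 2 lay higher without overlap, against 9.01% of all genes. Gzmb, a granule protease gene of killer cells that activated Tregs also carry, measured 7.70, 6.94 and 7.41 on the Tbet flox arrays and 4.32, 5.78 and 6.14 on the control arrays (1.94 ± 0.55, SE; limma adjusted p = 0.407). Prf1 (0.17) also lay higher without overlap, Cd8b1 measured 1.90 by its brightest probe and -0.13 by the other, both with overlapping groups, and Ncr1 of NK cells was detected on no array. Of 6 measured mast cell markers 4 measured higher and 2 lower, with a median of 0.20. Only Cpa3 had groups that did not overlap, and it lay higher, against 9.01% of all genes. Cpa3, a mast cell protease gene, measured 8.64, 6.99 and 6.50 on the Tbet flox arrays and 4.49, 6.18 and 4.35 on the control arrays. Of its probes 2 measured higher (2.37 and 2.76) and 1 measured -0.11. Cma1 measured 1.35 and Gata2 -1.35, both with overlapping groups. The part of CD8 T, NK and mast cells in the differences above was not tested.

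Spleen Tregs of the same genotypes, normalized together with the PGWAT arrays and fitted with a weight for each tissue, give a second reading of the same contrast. The spleen arrays lay on a different chip from the PGWAT arrays, so tissue and chip cannot be told apart. The spread of a PGWAT array was 3.2 times that of a spleen array in this fit, and genotype called 269 genes in spleen (1.76%), against 32 in PGWAT (0.209%). Ifng measured 5.51, 4.82 and 5.32 on the spleen Tbet flox arrays and 7.10, 7.84 and 7.11 on the spleen control arrays. It fell by 2.13 ± 0.23 (SE; limma adjusted p = 0.00253) in spleen, beside -3.55 ± 0.74 (limma adjusted p = 0.106) in PGWAT in the same fit. The effects of the tissues differed by -1.42 ± 0.78 (limma adjusted p = 0.560), which did not pass.

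In spleen Cxcr3 fell by 3.35 ± 0.29 (SE; limma adjusted p = 0.000433), with 5.00, 4.38 and 4.67 on the spleen Tbet flox arrays and 7.93, 8.53 and 7.65 on the spleen control arrays. The difference from its effect in PGWAT (-1.34) was 2.01 ± 0.97, which did not pass (limma adjusted p = 0.489). Klrg1 rose in spleen by 1.33 ± 0.30 (SE; limma adjusted p = 0.0432) and Il10 by 1.23 ± 0.28 (SE; limma adjusted p = 0.0468), the same direction as the 2.11 and 1.68 measured in PGWAT in this fit. In spleen Hspa1a fell by 2.72 ± 0.33 (SE; limma adjusted p = 0.00522), beside -3.18 in PGWAT, and Hspa1b fell by 2.79 ± 0.31 (SE; limma adjusted p = 0.00253), beside -1.53 in PGWAT.

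In spleen Gata3 and Il5 measured -0.02 ± 0.19 and -0.08 ± 0.17 (SE), near 0, and Il5 was detected on none of the 6 spleen arrays. The differences between the tissues, 2.25 ± 0.64 for Gata3 and 2.27 ± 0.58 for Il5, did not pass (limma adjusted p = 0.232 and 0.196). Camk4 measured -0.03 in spleen, with levels of 8.50 to 8.70 on all 6 spleen arrays, which is near the PGWAT Tbet flox level and above that of PGWAT control replicates 1 and 3. Its difference between the tissues was 2.88 ± 0.75 (SE; limma adjusted p = 0.201).

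**Figure D5:**
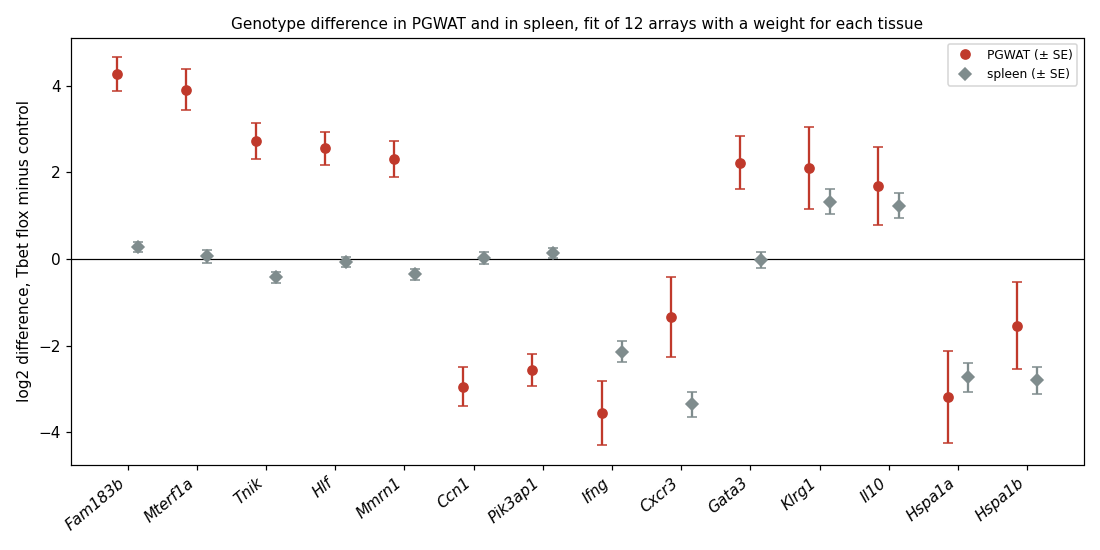
Log2 difference, Tbet flox minus control ± SE (y axis), of 14 genes (x axis) in PGWAT (red circles) and spleen (grey diamonds), from the fit of 12 arrays with a weight for each tissue. Ifng, Hspa1a and Hspa1b are lower and Klrg1 and Il10 higher in both tissues, while Fam183b, Mterf1a, Tnik, Hlf, Mmrn1, Ccn1 and Pik3ap1 differ more in PGWAT and lie between -0.42 and 0.29 in spleen.

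The genotype effect differed between the tissues for 11 genes and unnamed probes (0.0719%), 9 of them named: Fam183b, Mterf1a, Mterf1b, Tnik, Hlf, Mmrn1, Mmp25, Pik3ap1 and Ccn1. Each tissue lay on its own chip, so these differences may be of the tissue or of the chip. Of the genes with other kept probes, Mterf1b, Tnik, Pik3ap1 and Ccn1 had 1 whose PGWAT groups overlapped, as given above. The number rested on single arrays: it was 2 without PGWAT control replicate 3, 59 without PGWAT control replicate 2 and 5 without any 1 of the PGWAT Tbet flox arrays. For Mterf1a the spleen arrays measured 9.25, 9.13 and 9.11 in Tbet flox and 8.90, 9.35 and 9.03 in control. The 3 PGWAT control arrays, where the gene was undetected, were thus the ones that stood apart from the other 9. Tnik and Mmrn1 were likewise detected on all 6 spleen arrays, at 6.53 to 7.19 and 7.56 to 8.17. Hlf, Mmp25 and Ccn1 were detected on none of the spleen arrays and Fam183b and Pik3ap1 on 1 each, so for these 5 the spleen effect near 0 is read where the gene was at or near background.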

How the data were processed

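RNA of T cells labelled as regulatory T cells was extracted with Qiagen Allprep, amplified from 5 pg (the unit as the labels give it) with NuGen Ovation Pico WTA and hybridised to Illumina MouseWG-6 arrays, per the labels' protocols. The deposited table holds the bead-averaged intensity of each probe, not normalized, per the file headers. It also holds a detection p-value for each probe, made by the authors with GenomeStudio (version not given in the sources used here). The authors' processed values are intensities on a linear scale whose arrays share almost 1 distribution, and they served as an alternative.

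The 6 PGWAT arrays were corrected and quantile normalized with neqc (limma 3.58.1, R 4.3.3; offset 16). Probes with a detection p under 0.05 on at least 3 arrays were kept (17814), and the brightest probe stood for each gene. Of 45281 probes, 34885 have 1 gene symbol in the platform annotation, 18 several and 10378 none; 9131 of the 12471 features tested are named. Genotype was tested with lmFit and eBayes and Benjamini-Hochberg adjustment at 0.05. The fit of 12 arrays normalized all of them together and gave a PGWAT array a weight of 0.313 and a spleen array 3.2. Both fits were tested on simulated data. No 2 arrays agreed above r = 0.9892, so none was counted as a duplicate. Same-numbered arrays of the genotypes did not deviate together, so they were not paired.

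Genes were named by rule: in each direction the 12 with the smallest unadjusted p among those with groups that do not overlap, a difference of at least 1 log2 unit and detection p under 0.01 on all 3 brighter arrays; Tbx21, Foxp3, Ifng, Gata3 and Cxcr3; and the 4 members of each list with the smallest p. Other genes were chosen after their values were seen. The comparison, gene lists and rule were chosen with earlier results of these data known. Promoters are RefSeq sequences of GRCm38.p6. Listed genes without a probe symbol were not analysed here. Alternatives changed the normalization, offset, filter, probe choice, weights, pairing and arrays included.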

Additional observations from a re-analysis of the deposited data

Results flagged for a closer look

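The genotype effect in PGWAT minus that in spleen passed the test of the difference (limma, 12 arrays with tissue weights, adjusted p under 0.05) for 9 named genes. It was 3.99 log2 units for Fam183b (adjusted p = 0.0016), 3.84 for Mterf1a (0.0121), 3.39 for Mterf1b (0.0158), 3.14 for Tnik (0.0151), 2.65 for Mmrn1 (0.048), 2.63 for Hlf (0.0266) and 2.20 for Mmp25 (0.0444). It was -2.70 for Pik3ap1 (0.0254) and -2.97 for Ccn1 (0.0419). All 9 had PGWAT groups that did not overlap by their brightest probe, while another kept probe of Mterf1b, Tnik, Pik3ap1 and Ccn1 had groups that did. Each tissue lay on its own chip, so tissue and chip cannot be told apart in these differences. False calls of the difference between tissues were not simulated. For genotype in PGWAT the same fit made 24.4 false calls on average on simulated data. With 3 arrays a group, no test for a single array far from its group was run.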

How the results depend on the processing

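The number of genes past the threshold was 0 with all 6 arrays and 0 when any 1 array was left out, 2 when normalized with all 12 arrays, 3 with no filter, 2 with a weight for each array, 32 with tissue weights and 580 with equal weights over 12 arrays. In the simulation the mean number of false calls was 219.8 for the equal-weight fit, 24.4 for the fit with tissue weights and 1.3 for the 6-array fit. Each fit also found true changes there, so these numbers are not the false shares of the real calls. The replicate numbers of the labels gave correlations of deviations of 0.0877, 0.0125 and 0.00765 between same-numbered arrays, and with the replicate block 0 genes passed (smallest adjusted p 0.523, limma).

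The share of genes higher without overlap was 9.01%, and 4.67% with arrays scaled to 1 median, 13.6% to 17.3% without 1 array and 20.3% without control replicate 1 and Tbet flox replicate 3; the share lower was 6.24%, and 9.29% to 12.2% without 1 array and 15.7% without both. Fewer arrays make overlap rarer by construction. Scaling to 1 median put the median of all genes at -0.11, against 0.05. The type 2 median was 0.66 with quantile normalization and no background correction, 0.67 in the authors' processed values and 0.26 with no filter. The immediate early median was -0.57 with scaling and -0.11 without both arrays, the glycolysis median -0.021 with scaling, and the CD8 T and NK median 0.88 without Tbet flox replicate 3. Over the arrays left out in turn the immediate early median ran from -0.53 to -0.21 and the CD8 T and NK median from 0.12 to 0.88.

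Tbx21 measured -0.90 without Tbet flox replicate 1, -0.15 without control replicate 1, -0.06 without control replicate 3 and -0.15 with a weight for each array; over all 6 arrays left out in turn it ran from -0.90 to 1.19. Foxp3 measured -0.25 without control replicate 1 and -0.43 without both, and ran from -0.25 to 1.84 when 1 array was left out. Mcm6 measured -0.48 with the probe of largest SD. Zbtb46 measured -0.34 with quantile normalization, -0.88 with scaling, -0.37 in the authors' values, -0.85 in both fits of 12 arrays, -0.90 to 1.53 without 1 array, below 0 without any 1 of the Tbet flox arrays, and -1.35 without both. The cause was not tested.

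The number of genes whose effect differed between tissues was 11, and 18 with equal weights, 18 with quantile normalization, 43 with no filter, 1 with the replicate block, and 2 to 59 without 1 PGWAT array. For the genes named, 1704 recomputed differences kept their direction and side of the threshold, 78 also came to pass it and 16 changed sign. Precision was limited by 3 arrays a group, and many dimmer-group levels lay near background.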
